A study of Vigna radiata with 42 samples.

Results

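A set of 28 leaf genes of mung bean (Vigna radiata) was high at 1 h and again at 24 h of direct salt, and low at 12 h. The genes were chosen out of 28740 gene IDs by their level in directly salted leaves alone, and they are 0.142% of the 19753 genes that passed a filter on low values. A member had to stand at least 1 above its 0 h mean at 1 h and at 24 h, on the log2(value + 1) scale, and its 12 h mean had to lie at least 1 below both of those means. One unit on this scale is a 2-fold step for a gene far above 0 and a larger fold for a gene near 0. The members' levels in those 4 groups are therefore described without a test, and tests are given only in libraries that the choice did not use.

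Seedlings of the cultivar Weilv 9 were grown in nutrient solution, and the first fully expanded true leaves were taken for sequencing of poly(A) RNA. T2, the directly salted seedlings, met 100 mM NaCl once. T1, the pre-conditioned seedlings, had met 100 mM NaCl for 24 h, then recovered without salt for 48 h, and then received the same final salt. Each treatment has 3 libraries at each of 7 times of the final salt, from 0 to 48 h, 42 in all, and no group went without salt after 0 h. The 24 and 48 h leaves share the hour of day with the 0 h leaves and the 12 h leaves do not, so plant age and salt cannot be told apart in any change from 0 h, and at 1, 3, 6 and 12 h neither can time of day. The sources used here do not say whether a replicate is a single plant.

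Salt acts on a leaf in phases. The early phase is taught as osmotic, when water becomes harder to take up. The later one is taught as ionic, when sodium and chloride build up in the blade. Many transcripts answer the first phase within minutes to hours and then fall back, and many leaf genes also rise and fall every day under the circadian clock. The gene IDs in the table are not paired with names, and none matched the reference gene list. No function or sequence is therefore given for any member, and the leaf identity of the libraries was not checked against marker genes.

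Of the 42 libraries, 6 were on average closer in profile to another group than to their own, among them all 3 of T1 0 h, the baseline of every T1 change from 0 h. The others were T1 3 h replicate 3, T1 6 h replicate 3 and T2 1 h replicate 2. T1 0 h replicate 2 had a mean correlation of 0.923 with its own group and 0.97 with the T2 0 h group, over all genes tested. Relative depth, read from the steps between low values, ran from 0.79 to 1.39 times the median library. T1 24 h replicate 1 had 5.38% of its signal in IDs with the plastid prefix Pt, T2 24 h replicate 2 had 2.5% and T2 12 h replicate 3 had 2.08%, while no other library passed 0.788%.

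In directly salted leaves the median member stood at 3.15 on the log2(value + 1) scale before the salt. It was 5.04 after 1 h and 4.95 after 3 h, fell to 3.14 after 6 h and 2.63 after 12 h, and was 4.93 after 24 h and 5.01 after 48 h. The 3, 6 and 48 h groups were not used in the choice, though 3 and 6 h lie between 1 and 12 h, which were. The median level was about as high at 3 h as at 1 h and at 48 h as at 24 h. From 3 to 6 h the T2 group mean was lower in 26 of the 28 members (median step -1.23), and from 6 to 12 h it was lower again in 20 (median step -0.68). Of the 28 members, 18 had their highest T2 group mean at 1 or 3 h, 5 at 24 h and 5 at 48 h. The lowest T2 group was 12 h for 15 members, 0 h for 7, 6 h for 5 and 48 h for 1. At 12 h 19 of the 28 lay below their own 0 h mean. In a leaf as a whole, fewer cells with the transcript and less transcript per cell cannot be told apart.

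**Figure D1:**
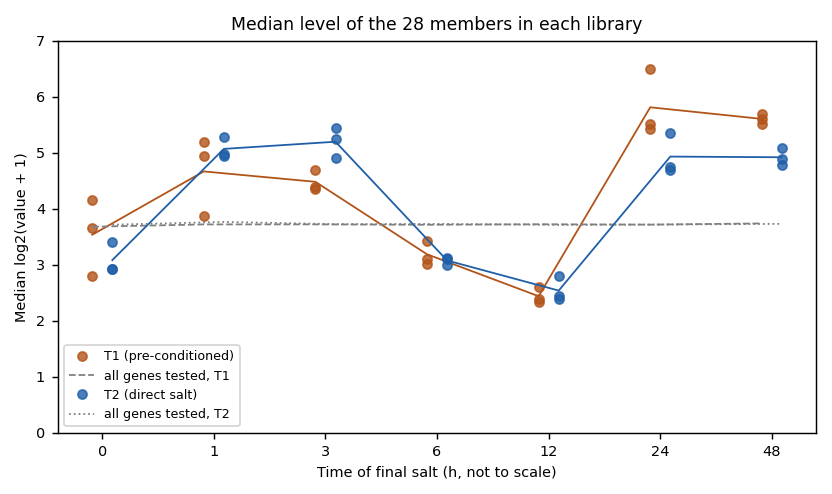
Median log2(value + 1) of the 28 members in each library (points), by time of the final salt on an axis that is not to scale, with lines through the group means. The T2 points at 0, 1, 12 and 24 h chose the members; the T1 points did not, and they fall from 3.87, 4.94 and 5.19 at 1 h to between 2.33 and 2.6 at 12 h and reach 5.42 to 6.49 at 24 h. The grey lines are the median of all 19753 genes tested.

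Members differed widely in how far they passed the thresholds. Virad05G0197700 passed them by the widest margin, 3.49. In T2 it was at 1.51, 1.36 and 0.717 at 0 h, 174, 178 and 144 at 1 h, 3.85, 14.4 and 4.39 at 12 h, and 164, 151 and 317 at 24 h. Every 1 h and 24 h library lay far above the highest 12 h library, and the 12 h libraries were above all 0 h libraries. At the other end, 8 members passed their nearest threshold by less than 0.1. The nearest inside were Virad03G0235000 (by 0.036), Virad04G0242900 (0.042) and Virad01G0057900 (0.064). The nearest outside were Virad07G0207100, Virad07G0360500 and Virad07G0041100, whose rises from 0 to 24 h were 0.999, 0.995 and 0.983. Leaving out each of the 12 T2 libraries in turn and reapplying the thresholds gave between 20 and 41 genes, and 15 of the 28 members met them every time. Without T2 1 h replicate 2 there were 34 genes, 27 of them members. The fewest, 20, were left without T2 24 h replicate 3, and all of these were members. Virad11G0131800, Virad05G0209300 and Virad09G0171100 were among the members that then missed the thresholds.

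Whether pre-conditioned leaves followed the same course was asked in the 21 T1 libraries, none of which had a part in the choice. The fall to 12 h and the return by 24 h were both found there. The 12 h leaves differ in hour of day from the 1 h and 24 h leaves. In both steps salt, time of day and plant age thus cannot be told apart. From 1 to 12 h 24 of the 28 members fell and none rose, where 20.4% of all genes tested fell and 20% rose. The median difference over the 28 was -2.34 on the log2 scale, against -0.01 over all genes tested. From 12 to 24 h 24 members rose and none fell, with a median difference of 2.88 against 0.02. In this step 20.9% of all genes tested rose and 20.6% fell. These calls come from limma, fitted to all 42 libraries and 19753 genes, at a Benjamini-Hochberg adjusted p under 0.05.

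Both steps were called in 23 members, against 12.1% of all genes tested. In 23 of the 28 every T1 12 h library lay below every T1 1 h and T1 24 h library, a pattern seen in 16.5% of all genes tested. With every library scaled to the same total, the median of all genes shifted by 0.43 from 1 to 12 h and by -0.38 from 12 to 24 h. The members' medians were then -1.87 and 2.47, with 21 members lower and 23 higher.

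The deepest dip in T1 was that of Virad05G0135800. It was at 11.6, 48.5 and 30.4 at 1 h, at 0.706, 0.68 and 0.152 at 12 h, and at 163, 64.8 and 24.1 at 24 h. Every 12 h library lay far below the 1 h and 24 h libraries, which overlapped each other, and also below all T1 0 h libraries, which stood at 11.5, 4.85 and 31.6. The log2 difference was -4.18 from 1 to 12 h (SE 0.53, limma adjusted p = 9.87e-08) and 5.44 from 12 to 24 h (SE 0.53, adjusted p = 6.08e-10).

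Virad05G0209300 took the next place by depth of dip. It was at 26.2, 38.2 and 43.3 at 1 h, fell to 2.22, 1.76 and 2.38 at 12 h and was at 103, 51.7 and 39.2 at 24 h. The 3 libraries at 12 h lay close together while those at 24 h spread over more than a 2-fold range. Its log2 differences were -3.54 (SE 0.45, limma adjusted p = 1.42e-07) and 4.28 (SE 0.45, adjusted p = 4.16e-09).

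Virad07G0326900 showed the same shape with its maximum at 24 h. It was at 10.6, 27.2 and 32.3 at 1 h, 2.41, 2.2 and 2.4 at 12 h, and 215, 149 and 92.8 at 24 h. Even the lowest 24 h library stood far above the highest 1 h library. The return of 5.44 (SE 0.36, limma adjusted p = 1.43e-13) had the smallest p of all members. Over the 7 times its T1 and T2 group means had a correlation of 0.997, the highest among the members.

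Among the other members with deep dips, Virad03G0235000, Virad11G0131800, Virad06G0195400, Virad01G0057900 and Virad04G0040200 fell from 1 to 12 h by log2 differences between -3.34 and -2.66 and rose again by between 3.07 and 5.98. Virad06G0195400 was the steadiest of these. It was at 71.4, 95.9 and 107 at 1 h, 13.4, 13 and 10.1 at 12 h, and 143, 132 and 94.5 at 24 h. None of its 3 groups spread over a 2-fold range, and the 12 h libraries were far below the rest.

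For 3 members neither step was called in T1. Virad02G0092600 had the shallowest dip. It stood at 5.53, 7.41 and 6.67 at 1 h, 3.2, 5.64 and 8.23 at 12 h and 8.12, 13.5 and 7.45 at 24 h, so the 12 h range overlapped both others. Virad03G0003900 had log2 differences of -0.4 and 0.51, and Virad06G0160700 of -0.95 and 0.87. In 2 more, 1 of the steps was not called. Virad07G0146200 had a difference of -2.29 from 1 to 12 h (SE 1.02, limma adjusted p = 0.0728), and Virad07G0144600 one of 2.76 from 12 to 24 h (SE 1.19, adjusted p = 0.0616). These are the members with the largest spread between replicates, with pooled SDs of 1.31 and 1.52 on the log2 scale against a median of 0.54 over the 28. The fall of Virad07G0144600 from 1 to 12 h was -3.52 (adjusted p = 0.0174), and -2.99 (adjusted p = 0.081) without T1 12 h replicate 1.

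**Figure D2:**
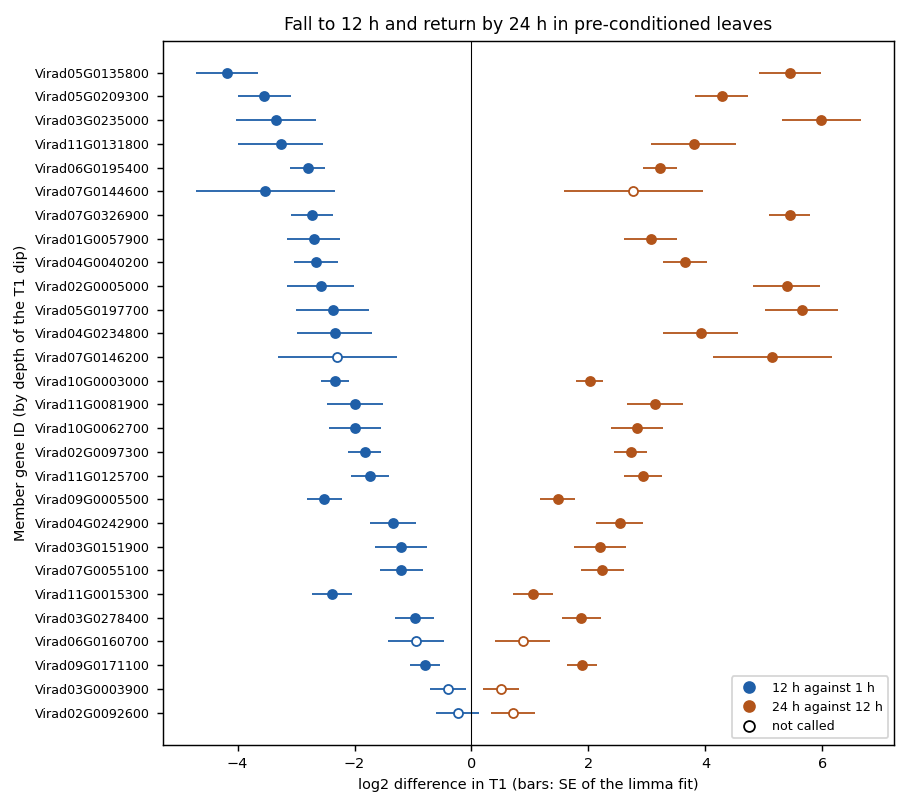
log2 differences of the 28 members in T1 from 1 to 12 h (blue) and from 12 to 24 h (orange), with the SE of the limma fit as bars; open points were not called. Differences from 1 to 12 h are all below 0 (-4.18 to -0.24), those from 12 to 24 h all above 0 (0.51 to 5.98), and the 5 members with an open point are named in the text.

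The rise at 1 h was less widely called in T1. Of the 28 members 8 were higher at 1 h than at 0 h and none lower, against 7.48% higher and 3.56% lower among all genes tested. The median T1 change was 0.88, where the choice had fixed it at 1 or more in T2. By 24 h 20 members were higher than at 0 h and none lower, against 11.8% and 8.59%. The count at 1 h was 5 without T1 0 h replicate 1, T1 1 h replicate 2 or T1 1 h replicate 3, and the count at 24 h was 13 without the 3 libraries high in Pt signal. In a fit to the 2 groups alone the count was 3 at 1 h and 4 at 24 h. Such fits called 248 and 251 of all genes tested, in either direction. Both rises were called in 7 members, against 1.47% of all genes tested. All 4 steps of the course, up at 1 h and at 24 h and down and back around 12 h, were called in the same 7, against 0.4%. They were Virad10G0003000, Virad11G0081900, Virad02G0005000, Virad02G0097300, Virad07G0326900, Virad06G0195400 and Virad09G0005500. All 4 calls were kept under every alternative only for Virad10G0003000, Virad02G0097300 and Virad09G0005500. The other members of the 7 lost the call at 1 h under some alternatives. In a fit to the 2 groups alone 24 h against 0 h was also lost for Virad11G0081900 (limma adjusted p = 0.0769), Virad02G0005000 (0.0722) and Virad06G0195400 (0.0769). The fall of Virad11G0081900 from 1 to 12 h was lost there too (0.0785).

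Virad10G0003000 was the steadiest member, with a pooled SD of 0.29, and the second most abundant, with a mean value of 193 over all libraries. In T1 it rose from 34.6, 68.3 and 51.8 at 0 h to 202, 229 and 267 at 1 h, lay at 42.4, 46.3 and 46.8 at 12 h and at 222, 186 and 156 at 24 h. The 12 h libraries lay within the range of the 0 h libraries, and the 1 h and 24 h libraries were all above both. The rise at 1 h was 2.19 (SE 0.23, limma adjusted p = 6.28e-08).

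Virad09G0005500 had the largest T1 rise at 1 h. It went from 7.43, 3.73 and 5.26 at 0 h to 26.3, 51.8 and 69.8 at 1 h, and was at 8.09, 7.1 and 6.43 at 12 h and 20.1, 18.7 and 27.1 at 24 h. The log2 change at 1 h was 2.89 (SE 0.3, limma adjusted p = 5.66e-08). Its 24 h libraries lay above the 0 h and 12 h libraries, and the highest of them just passed the lowest 1 h library. In T2 its values at 1 h were 71.7, 70.3 and 55.8.

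Virad11G0081900 was near 0 before salt and at 12 h. In T1 it was at 0.07, 0.781 and 0.207 at 0 h and at 0.191, 5.17 and 8.6 at 1 h. At 3 h it reached 18.3, 22.7 and 23, and at 12 h it was at 0.048 and 0.062 with 1 library listed at 0. The 1 h libraries overlapped those of 0 h, and the call at 1 h (1.65, SE 0.48, limma adjusted p = 0.0223) was lost without any 1 of T1 0 h replicates 1 and 3 and T1 1 h replicates 2 and 3, at adjusted p between 0.0678 and 0.256.

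The same thresholds applied to T1 gave 25 genes, or 0.127% of those tested. Of these, 9 were members, which is 32.1% of the members and 36% of the T1 genes. They were Virad05G0209300, Virad10G0003000, Virad11G0081900, Virad02G0005000, Virad05G0135800, Virad02G0097300, Virad07G0326900, Virad05G0197700 and Virad09G0005500. The T1 threshold most often missed by the other members was the rise at 1 h, which stayed under 1 in 17 of the 28; the rise at 24 h stayed under 1 in 7, and the gaps from 12 h to 1 h and to 24 h in 5 and 3. The T1 list held between 21 and 45 genes with 1 library left out, the most (45) when replicate 3 of T1 0 h was out, and 41 when replicate 1 of T1 1 h was.

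T1 0 h replicate 2 weighed on every change from T1 0 h. It lay below both other T1 0 h libraries in 18 of the 28 members, and at least 2-fold below both in 11, against 4.3% of all genes tested. The widest case was Virad07G0144600, at 447 and 702 in replicates 1 and 3 and at 1.54 in replicate 2. Virad07G0146200 was at 87.1 and 241 against 2.33, and Virad11G0131800 at 322 and 631 against 17.7. Without that library the median T1 change of the members at 1 h was 0.59 in place of 0.88, with 9 called higher and 1 lower, and 19 members in place of 12 were called lower at 12 h than at 0 h. The median at 1 h was 1.14 when replicate 3 of T1 0 h, or replicate 1 of T1 1 h, was left out instead. T1 1 h replicate 1 lay below both others of its group in 24 of the 28 members and at least 2-fold below both in 10, against 1.6% of all genes tested. For either library, the share of all genes was counted only for the 2-fold gap. The fall from 1 to 12 h and the return by 24 h do not use the T1 0 h libraries.

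Some of the same members also differed between T2 3 h libraries. Virad07G0146200 was at 7.67, 355 and 80.4, and Virad11G0131800 at 295, 1375 and 523, with replicate 2 the highest in both. Across the 28 members, the deviation of T1 0 h replicate 2 from its group and that of T2 3 h replicate 2 from its group had a correlation of -0.67, and across all 19753 genes tested one of -0.37. Members low in the first library tended to be high in the second. This is a description across genes, which are not independent replicates.

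**Figure D3:**
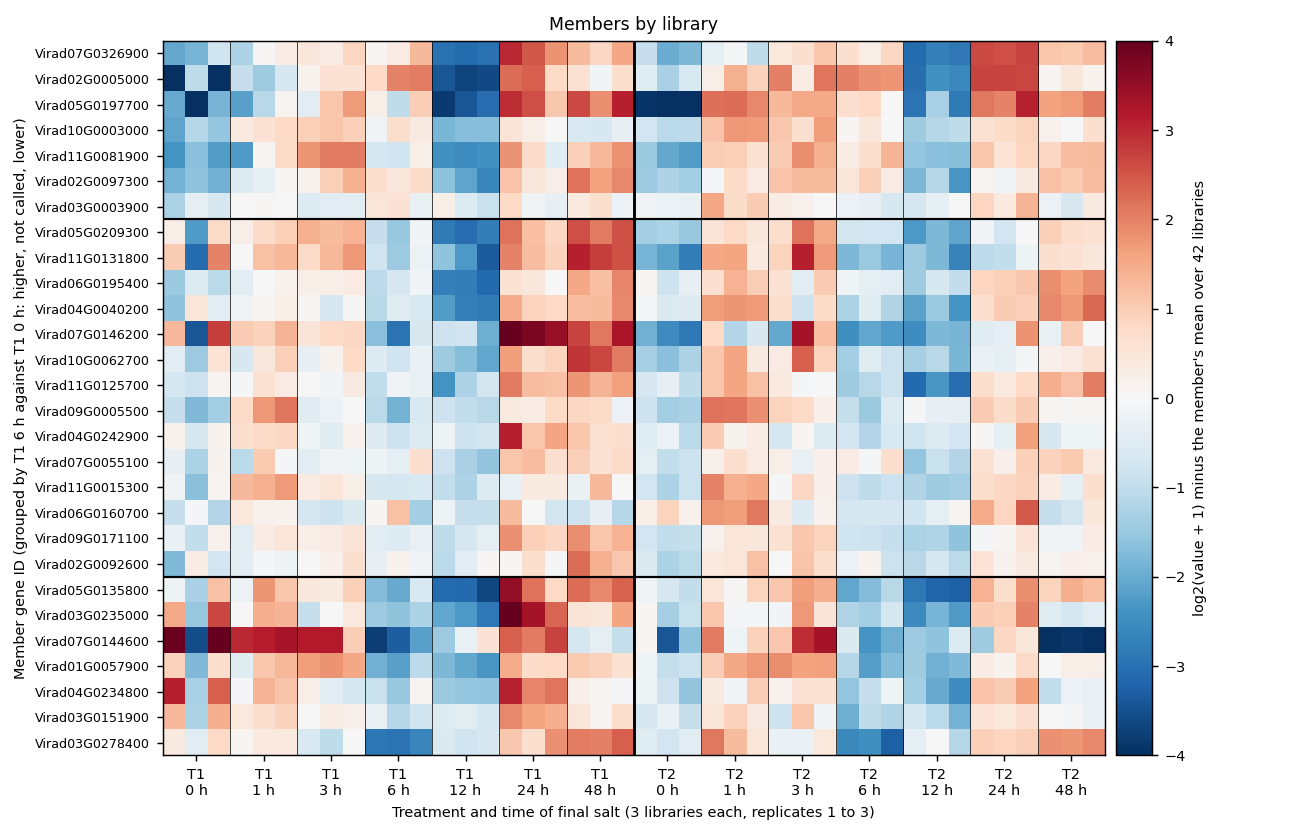
log2(value + 1) of each member (rows) in each of the 42 libraries (columns, replicates 1 to 3 within each group), minus the member's mean over all libraries. Rows are grouped by the T1 call at 6 h against 0 h: 7 higher, 14 not called and 7 lower. The 12 h columns are blue in most rows of both treatments, and T1 0 h replicate 2 is paler or bluer than replicates 1 and 3 in most rows of the lower block.

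At 6 h, a time the choice did not use, the members did not share a direction in T1. Of the 28, 7 were higher at 6 h than at 0 h, 7 were lower and 14 were not called, against 24.3% higher and 20.7% lower among all genes tested, so that both shares lay near those of all genes. With every library scaled to the same total, 8 were higher and 5 lower, and without T1 0 h replicate 2 there were 8 higher and 10 lower. In T2 16 of the 28 fell from 3 to 6 h and none rose, against 14.1% falling and 12.2% rising among all genes tested. The choice required a T2 fall between 1 and 12 h, and this step lies within it. A larger share of falls than among all genes was therefore made likely by the choice. The median T2 difference from 3 to 6 h was -0.63 in the 7 members that were higher in T1 at 6 h, with 1 of them called lower. It was -2.71 in the 7 that were lower in T1, with 6 called lower. The 2 treatments share no library here, but the T1 calls are changes from 0 h and the T2 step starts at 3 h. The same split was not made over all genes tested. Their T1 and T2 group means had a median correlation of 0.76 over the 7 times. The split is thus not shown to be particular to the members.

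Virad02G0005000 stayed up until 6 h and then dropped. In T1 it was at 1.22, 29.4 and 2.31 at 0 h, 67.4, 92.1 and 91.2 at 3 h, 106, 245 and 253 at 6 h, 4.75, 3.77 and 4.09 at 12 h and 293, 320 and 108 at 24 h. The T2 libraries at 6 h were at 251, 220 and 211 and those at 12 h at 6.67, 10.6 and 9.45. In both treatments the whole descent thus fell between 6 and 12 h. The T1 change from 0 to 6 h was 4.96 (SE 0.57, limma adjusted p = 2.79e-08).

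Virad02G0097300, Virad07G0326900, Virad05G0197700 and Virad10G0003000 were also higher at 6 h, by T1 changes of 2.43, 2.13, 2.9 and 1.92. For Virad02G0097300 the T1 libraries read 121, 104 and 128 at 6 h and 23.8, 16.9 and 11.8 at 12 h, and the T2 libraries 107, 148 and 95.4 and then 21.1, 33.7 and 14.3. The 6 and 12 h groups did not overlap in either treatment. Virad11G0081900 and Virad03G0003900, with changes of 1.68 and 1.01, complete the 7. The call of Virad03G0003900 was lost when replicate 1 of T1 0 h (adjusted p = 0.0777) or replicate 2 of T1 6 h (adjusted p = 0.0502) was left out.

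Virad03G0278400 took the opposite course and had its lowest level at 6 h in both treatments. In T1 it fell from 15.6, 8.54 and 21.3 at 0 h to 0.724, 0.664 and 1.06 at 6 h, and had returned to 7.51, 6.36 and 7.23 by 12 h. In T2 the 3, 6 and 12 h libraries were at 9.65, 9.62 and 16.1, then 1.17, 1.36 and 0.339, then 9, 11.7 and 4.82. Its trough thus came before 12 h, which is the low time the choice was built on. The T1 change to 6 h was -3.07 (SE 0.33, limma adjusted p = 7.47e-09) and the T2 fall from 3 to 6 h was -2.71 (SE 0.33, adjusted p = 6.06e-07).

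Virad01G0057900 also dropped early and stayed low through 12 h. Its T2 libraries went from 83.6, 69.4 and 71.2 at 3 h to 9.47, 4 and 5.95 at 6 h and 7.55, 5.16 and 5.76 at 12 h. In T1 the values were 73.3, 79.7 and 66, then 5.09, 4.16 and 10.1, then 5.68, 4.51 and 3.64. The 6 and 12 h groups overlapped in both treatments and lay far below 3 h. The T2 fall was -3.4 (SE 0.45, limma adjusted p = 1.85e-06).

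The other 5 members lower in T1 at 6 h were Virad04G0234800, Virad03G0235000, Virad03G0151900, Virad05G0135800 and Virad07G0144600, with changes between -4.72 and -1.24. The first 4 of these calls were lost when replicate 3 of T1 0 h was left out, at adjusted p of 0.0603, 0.0947, 0.208 and 0.328. Leaving out replicate 1 of that group lost those of Virad04G0234800 (adjusted p = 0.106), Virad03G0151900 (0.176) and Virad05G0135800 (0.0671). The calls of Virad03G0151900 and Virad05G0135800 were lost under 7 alternatives each. Together 5 members were lower than at 0 h at both 6 and 12 h in T1, or 17.9% of the members against 10.7% of all genes tested.

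At 12 h 12 members were lower in T1 than at 0 h, none higher, and 16 not called, against 19.2% lower and 22.5% higher among all genes tested. Scaled to the same total, where the median of all genes shifted by 0.49 at 12 h, 9 members were lower and 2 higher. At 3 h 13 members were higher than at 0 h and none lower (14.6% and 11.4% of all genes tested). With median-of-ratios scaling and with quantile normalization 1 member was called lower at 3 h, and without T1 0 h replicate 2 there were 9 higher and 4 lower.

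By 48 h 21 members were higher in T1 than at 0 h and none lower, where 28.4% of all genes tested were higher and 21.4% lower. Without T1 0 h replicate 2 there were 18 higher and 3 lower. The highest T1 group mean of 13 members was that at 48 h and of 8 that at 24 h. Virad02G0097300 rose from 19.7, 24.2 and 19.2 at 0 h to 343, 234 and 289 at 48 h. All 3 of the 48 h libraries lay above the 168, 104 and 90.4 of 24 h. The change from 0 h was 3.71 (SE 0.28, limma adjusted p = 1.29e-11). In T2, 48 h was set against 3 h, both outside the choice. There 4 members rose and 4 fell, against 17.2% and 16.7% of all genes tested, so both counts lay near those shares. The difference was below 0 in 20 of the 28 and above 0 in 8, with a median of -0.38 against 0.01 over all genes tested.

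Virad07G0144600 was lost from T2 leaves by 48 h. It was at 62, 229 and 301 at 3 h, 18.9, 4.78 and 6.67 at 6 h, 10.2, 52.1 and 39.5 at 24 h and 0.135, 1.02 and 0.322 at 48 h. Every T2 library of another time lay above all 3 of these. The difference from 3 to 48 h was -6.82 (SE 1.19, limma adjusted p = 5.07e-05). In T1 the 48 h libraries were at 17.4, 22.4 and 14.4.

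Virad01G0057900 and Virad10G0003000 fell in T2 from 3 to 48 h by 1.54 and 0.86 on the log2 scale, and Virad09G0171100 by 0.85. The rises were of Virad03G0278400 (1.88), Virad04G0040200 (1.77), Virad11G0125700 (1.45) and Virad06G0195400 (1.4). Virad04G0040200 was at 34, 11.2 and 34.6 at 3 h and 79.8, 70.1 and 104 at 48 h in T2, without overlap. The calls of Virad10G0003000 and Virad09G0171100 were lost without T2 3 h replicate 3 (adjusted p = 0.0687) and T2 3 h replicate 2 (adjusted p = 0.0507).

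**Figure D4:**
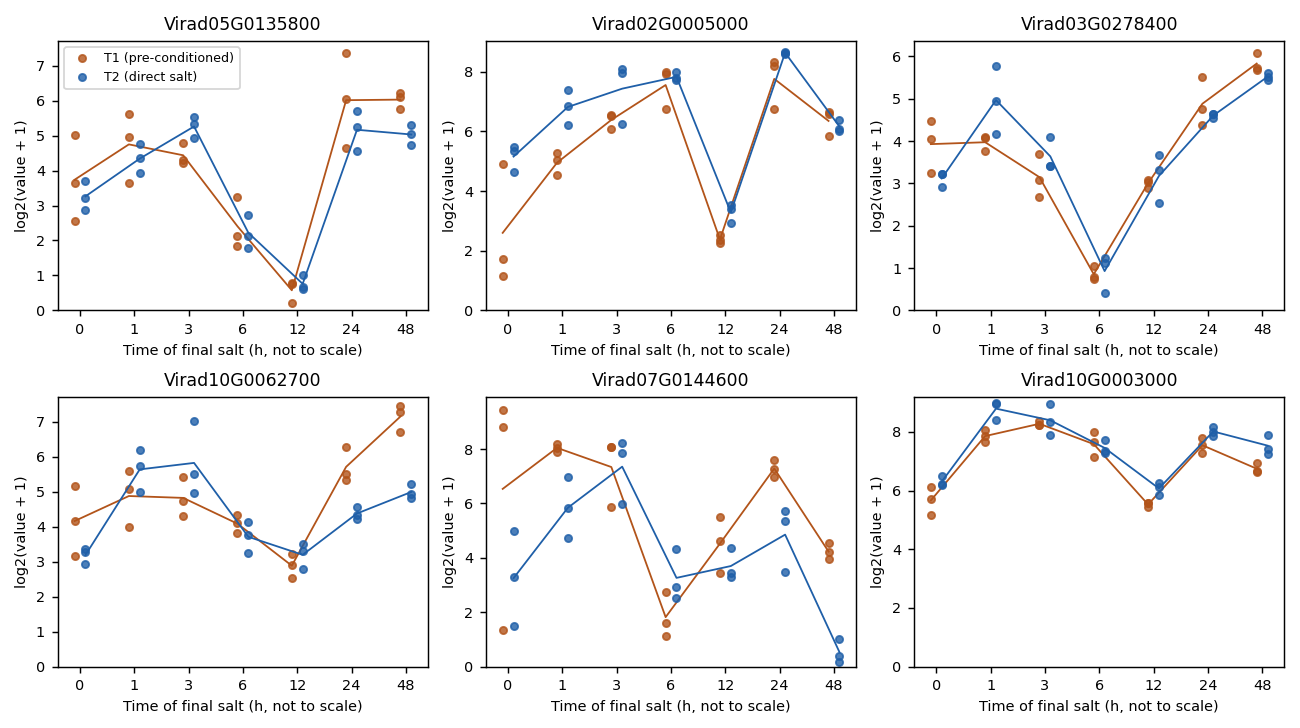
log2(value + 1) of 6 members in every library (points) with lines through group means, by time on an axis that is not to scale. Virad02G0005000 stays high to 6 h, Virad03G0278400 is lowest at 6 h, Virad10G0062700 is higher in T1 than in T2 at 48 h, and T2 48 h libraries of Virad07G0144600 lie near 0; its low T1 point at 0 h is replicate 2, at a value of 1.54.

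How the pre-conditioned and directly salted leaves differed in these genes was tested at 3, 6 and 48 h. The T2 levels at 0, 1, 12 and 24 h chose the members, so a test of T1 against T2 at those times would be skewed by the choice. T2 levels at the neighbouring 3, 6 and 48 h may carry part of that skew, which was not tested. At 3 and at 6 h limma called none of the 28 members, with 3 and 2 at an unadjusted p under 0.05. Among all genes tested 0.446% and 0.0557% were called. At 3 h the log2 differences, T1 minus T2, ran from -1.05 to 0.54 with a median of -0.35 and 24 of 28 below 0. At 6 h they ran from -1.44 to 0.9 with a median of 0.13.

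After 48 h of salt 7 members were higher in T1 than in T2 and 1 was lower, against 14% and 9.62% of all genes tested. Over the 28 the median difference was 0.55 on the log2 scale (-0.01 over all genes tested), with 23 above 0. In 15 members every T1 48 h library lay above every T2 48 h library, and in 1 all lay below, against 23.3% and 22.3% of all genes tested. The count of 8 calls was 3 when replicate 1 of T1 48 h was left out and 4 when replicate 2 was. It was 5 when replicate 1 of T2 48 h was left out and 4 when replicate 3 was. It was 13 in a fit to the 2 groups alone.

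Virad10G0062700, 1 of 3 members whose difference at 48 h was called under every alternative, was at 175, 154 and 102 in T1 and 27.2, 29.4 and 36.2 in T2. The lowest T1 library stood at more than 2-fold the highest T2 library. The difference was 2.15 (SE 0.45, limma adjusted p = 0.000832), and it was between 2 and 2.38 and called under every alternative.

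Virad09G0171100 was at 303, 182 and 219 in T1 and 76.3, 75.4 and 104 in T2 at 48 h. It differed by 1.43 (SE 0.26, limma adjusted p = 0.000204) and was also called under every alternative, as was Virad05G0209300, at 135, 94.9 and 132 against 43.7, 36.5 and 33.9 (1.63, SE 0.45, adjusted p = 0.00953). In all 3 the groups were apart. Virad02G0092600, which had no called dip in T1, was at 41.2, 22.8 and 17.8 in T1 and 8.61, 9.24 and 9.04 in T2 (1.42, SE 0.37, adjusted p = 0.0063). Its T2 libraries lay close together and its T1 libraries did not, and the call was lost without replicate 1 of T1 48 h (adjusted p = 0.0675).

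Virad11G0131800, the most abundant member with a mean value of 306 over all libraries, was at 1379, 1077 and 933 in T1 and 248, 238 and 218 in T2 at 48 h. Those T1 values were its highest group. The difference of 2.24 (SE 0.73, limma adjusted p = 0.0237) was not called when either T1 48 h replicate 1 or 2, or any 1 T2 48 h library, was left out, at adjusted p between 0.0534 and 0.0854. That of Virad07G0144600 (3.7, SE 1.19, adjusted p = 0.0227) was not called without T1 48 h replicate 1 or 2, or T2 48 h replicate 1 or 3, at adjusted p between 0.0612 and 0.074. The seventh, Virad04G0242900, differed by 1.13 (SE 0.4, adjusted p = 0.0368) and was not called under 7 alternatives.

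The only member called lower in T1 at 48 h was Virad10G0003000, at 101, 98.7 and 121 against 172, 152 and 240 in T2. The groups did not overlap. The difference was -0.79 (SE 0.23, limma adjusted p = 0.0138) and was not called without T1 48 h replicate 1 (adjusted p = 0.0556), T1 48 h replicate 2 (0.0583) or T2 48 h replicate 3 (0.101).

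Whether the members changed differently between treatments from 3 to 48 h was tested as a difference of differences, which uses none of the libraries behind the choice. It may still be touched by the choice, because T2 3 h lies next to the 1 h level that had to be high. At 3 h the T1 minus T2 difference was below 0 in 24 of the 28, with a median of -0.35 (0.005 over all genes tested). T1 had the higher change in 4 members and the lower in none, against 9.43% higher and 6.12% lower among all genes tested, and the median over the 28 was 1.1. Virad10G0062700 differed by 3.15 (SE 0.63, limma adjusted p = 0.000964). From 3 to 48 h it went in T1 from 18.6, 25.7 and 41.9 to 175, 154 and 102, and in T2 from 29.8, 127 and 44.4 to 27.2, 29.4 and 36.2. Virad09G0171100 differed by 1.92 (SE 0.36, adjusted p = 0.000571), rising in T1 from 101, 105 and 121 and falling in T2 from 129, 179 and 155. Virad02G0092600 (1.74, adjusted p = 0.0228) and Virad09G0005500 (1.26, adjusted p = 0.0441) complete the 4. Without T1 3 h replicate 1, T1 48 h replicate 1 or T2 3 h replicate 2 the count was 2. From 3 to 6 h limma called no member and 0% of the 19753 genes, with 4 members at an unadjusted p under 0.05.

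**Figure D5:**
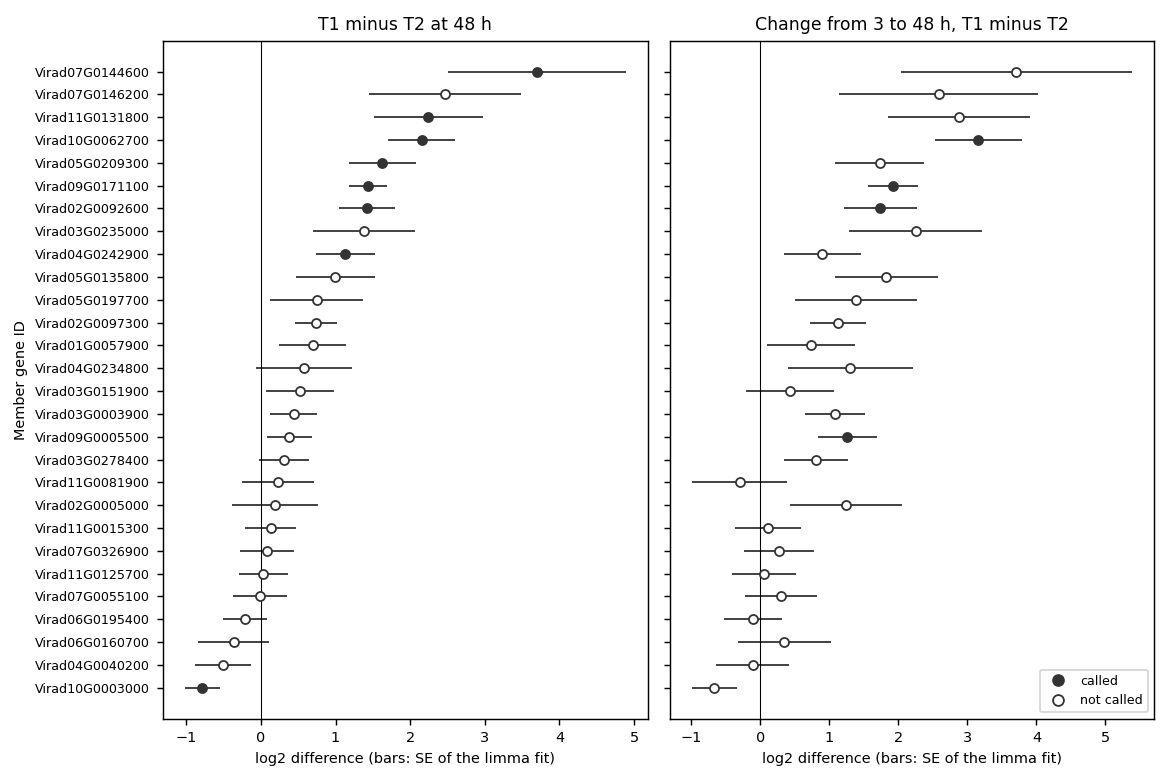
Left, log2 difference between T1 and T2 at 48 h for each member; right, the T1 change from 3 to 48 h minus the T2 change. Bars are the SE of the limma fit and filled points were called. On the left 23 of 28 points lie above 0, and 8 are filled; on the right 4 are filled, with Virad10G0062700 at 3.15 and Virad09G0171100 at 1.92.

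At the times that chose the members, T1 and T2 levels are given as a description. At 0 h 18 of 28 members were higher in T1, with a median difference of 0.43 on the log2 scale, and 0.8 without T1 0 h replicate 2. At 1 h 9 were higher in T1, with a median difference of -0.56, at 12 h 9 (-0.19) and at 24 h 17 (0.46). Virad05G0197700 was the farthest below T2 at 1 h, by 3.19, with T1 libraries at 7.4, 16.4 and 39.6. Virad07G0146200 was the farthest above at 24 h, by 3.64, at 890, 483 and 396 in T1 and 24.4, 26.7 and 123 in T2. Choosing genes that are low in T2 at 0 h and high in T2 at 1 and 24 h by itself moves these differences.

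Across the 7 times, T1 and T2 group means of a member had a median correlation of 0.87 (0.21 to 0.997) and all genes tested one of 0.76. It was over 0.8 in 19 of the 28 members and in 43.8% of all genes tested. Of the 7 T2 means behind each member's value, 4 are those that chose the members. The lowest value was that of Virad03G0003900. These are descriptions over 7 group means each, without a test.

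In abundance the members ran from a mean value of 2.76 over all libraries (Virad04G0242900) to 306 (Virad11G0131800), with a median of 30.2 against 13.1 for all genes tested. After Virad11G0131800 and Virad10G0003000 came Virad06G0195400 (128), Virad02G0005000 (122), Virad02G0097300 (105) and Virad07G0146200 (100.4). All 28 passed the filter on low values (1 or more in 3 or more libraries), which the thresholds themselves made likely. The IDs carry 10 of the 11 numbered prefixes, and none carries the Pt or Mt prefix. The closest pair by ID number was Virad07G0144600 and Virad07G0146200, with 15 listed IDs between them. This pair also held the largest pooled SDs between replicates, and both were far lower in T1 0 h replicate 2 than in the other 2 T1 0 h libraries.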

How the data were processed

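Leaf poly(A) RNA was sequenced in 42 libraries, 14 groups of 3. The submitters' processing notes name fastp 1.0.1, HISAT2 2.2.1, featureCounts and DESeq2 1.48.2. For genome build and annotation, the sources used here give none. The authors deposited 1 signal value per gene and library, named TPM. Columns sum to between 783218 and 1228250, so the values also carry a scaling between libraries that the sources do not describe, and the test planned for TPM was kept. Read depth is not given. Among 1271 genes seen in few libraries, 98.3% of 4030 low values came out as whole steps (tolerance 0.1) after a factor per library was fitted, against 20.2% before. Those factors gave the relative depths.

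Values were compared as log2(value + 1), which understates the change of low genes. Tested were the 19753 genes (68.7%) that reached 1 in 3 or more libraries. limma 3.58.1 in R 4.3.3 was fitted with a mean per group and a robust variance trend, and p-values are two-sided with Benjamini-Hochberg adjustment over all genes within each of 15 comparisons. With 3 against 3 libraries no exact permutation test could pass 0.05, so calls rest on variance shared over genes. They measure spread between these libraries. Counts and figures used Python 3.11.15, pandas 2.3.3, numpy 2.4.6 and matplotlib 3.10.9.

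The members, the comparisons and the rule for named genes were chosen with earlier results of these data known. Named were the 8 members with the deepest called T1 dips (the lower of the 1 and 24 h means minus the 12 h mean), the 4 with the shallowest, the 6 most abundant, up to 5 per direction for T1 against T2 at 48 h, up to 3 per direction for T2 48 h against 3 h, and the 3 genes nearest the thresholds on each side. Apart from the most abundant and those nearest the thresholds, a group mean of at least 5 was required. The members called at 1 and 6 h, and others in the text, were named after their values were seen. Lists by product were not run, because no gene ID matched the reference (assembly Vradiata_ver6). Alternatives were a pseudocount of 0.1, no filter, 3 scalings, a replicate block, a fit without the other groups, and leaving out libraries.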

Additional observations from a re-analysis of the deposited data

Results flagged for a closer look

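For 4 members the T1 and T2 changes from 3 to 48 h differed, by a limma test of that difference. The T1 change minus the T2 change was 3.15 for Virad10G0062700, 1.92 for Virad09G0171100, 1.74 for Virad02G0092600 and 1.26 for Virad09G0005500. The first 2 were called under every alternative, with values of 2.56 to 3.59 and 1.72 to 2.09. Virad02G0092600 was not called without T1 3 h replicate 1 (adjusted p = 0.0628), T1 48 h replicate 1 (0.0969) or T2 3 h replicate 2 (0.0834). Virad09G0005500 was not called under 13 alternatives, at adjusted p between 0.0504 and 0.137.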

How the results depend on the processing

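No called difference changed sign under any alternative. The fall from 1 to 12 h and the return by 24 h in T1 had 18 of 24 and 23 of 24 calls kept under all of them. Fewer were kept against T1 0 h, with 3 of 8 at 1 h, 5 of 13 at 3 h, 6 of 14 at 6 h, 4 of 12 at 12 h, 4 of 20 at 24 h and 16 of 21 at 48 h. For T2, 9 of 16 were kept from 3 to 6 h and 6 of 8 from 3 to 48 h. For T1 against T2 at 48 h 3 of 8 were kept, and 2 of 4 for the change from 3 to 48 h. With 1 library left out, counts of called members ran from 5 to 10 for T1 at 1 h against 0 h. Against 0 h they were 14 to 23 for 24 h, 8 to 19 for 12 h, 10 to 13 for 3 h, 10 to 18 for 6 h and 18 to 22 for 48 h. They ran from 20 to 24 (T1 12 h against 1 h), 23 to 25 (T1 24 h against 12 h), 12 to 16 (T2 6 h against 3 h), 7 to 9 (T2 48 h against 3 h), 3 to 7 (T1 against T2 at 48 h) and 2 to 6 (difference in change from 3 to 48 h), and stayed at 0 for T1 against T2 at 3 and 6 h and the change from 3 to 6 h. The thresholds reapplied with 1 library left out gave 20 to 41 genes in T2 and 21 to 45 in T1. Reapplied in T2 after scaling, they kept all 28 members with median-of-ratios scaling and 24 with quantile normalization. With every library scaled to the same total they kept 22 of the 28, and genes outside the 28 also met them. Lost there were Virad11G0131800, Virad10G0062700, Virad03G0003900, Virad07G0144600, Virad04G0242900 and Virad09G0005500. A fit without the other groups has fewer libraries behind the spread. It called 3, 4, 4, 5 and 6 members in T1 at 1, 24, 12, 3 and 6 h against 0 h. In T1 it called 23 for 12 h against 1 h and 25 for 24 h against 12 h. Why the counts against T1 0 h fell was not tested. For T1 against T2 at 48 h it called 13, and for the change from 3 to 48 h it called 10. That last count was 7 with every library scaled to the same total. T1 at 24 h against 0 h gave 13 without the 3 libraries high in Pt signal. With a pseudocount of 0.1 the thresholds were met by 80 genes, 28 of them the members, since low genes then show larger changes. Same-numbered libraries of different groups did not deviate together on average (mean correlation -0.0154 over 273 pairs, from -0.639 to 0.569). For libraries of different number the mean was 0.00776. Such a mean cannot show whether the numbers pair some of the groups. With the replicate block 4 members were called for the change from 3 to 48 h, and no count moved by over 1.5 times. Depth in reads is unknown, so levels near 0, such as that of Virad11G0081900 at 12 h, cannot be given a lower limit.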
